A study of Mus musculus with 14 samples.

Results

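ATF6 is a transcription factor held in the membrane of the endoplasmic reticulum (ER), and its RNA, that of its relatives and that of the proteases that release them were followed here in mouse liver under ER stress. The members were fixed by name, with earlier results of these data known: Atf6, Atf6b, Creb3, Creb3l1, Creb3l2, Creb3l3, Mbtps1 and Mbtps2. They numbered 8 of the 18193 genes that the array names singly, with 16 of its 45037 probe sets, and each gene was read by its brightest probe set. A probe set entered the tests where at least 3 arrays exceeded the pooled median (a normalised intensity of 41.5). This left 7 of the 8 genes and 14 of the 16 probe sets, and Creb3l1 was the gene that did not pass.

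The study hybridised RNA of 14 liver samples to 1 array each, in 4 groups, and each sample is called a liver below. WT mice received 0.3% DMSO, the vehicle (WT control, 3 arrays), or tunicamycin at 1 mg/kg for 6 h (WT tunicamycin, 4 arrays). Mice labelled lsPERK, the knock-out of the ER stress kinase PERK, received the same (lsPERK control, 3 arrays, and lsPERK tunicamycin, 4 arrays). Tunicamycin blocks N-linked glycosylation, so that unfolded proteins gather in the ER. The sources used here do not give the time of the control livers, the age, sex or strain of the mice, or the way the knock-out was made. Nor do they say that each sample of a group is from a different mouse, so the p-values cover the spread between these samples, which may be technical.

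ATF6 and its close homologue ATF6B are type II membrane proteins whose lumenal part senses ER stress. Under stress they travel to the Golgi, where site-1 protease (gene Mbtps1) cuts the lumenal part and site-2 protease (gene Mbtps2) cuts within the membrane, which frees a basic leucine zipper fragment that enters the nucleus and switches on genes of protein folding and of ER-associated degradation. The CREB3 proteins are built in the same way and are cut by the same proteases: CREB3 (Luman) and CREB3L2 (BBF2H7) act in secretory cells, CREB3L1 (OASIS) in cells that make collagen, and CREB3L3 (CREBH) in liver, where it serves lipid and glucose metabolism. All of these steps act on proteins, which arrays do not measure. The study's title places PERK upstream of ATF6 activation, and the RNA of these genes in the 4 groups is what the arrays can show of that question.

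The proximal promoters of Atf6b, Creb3 and Creb3l2, the members with a window that were called higher in both genotypes, are shown first, since the best known ATF6 binding element, ERSE (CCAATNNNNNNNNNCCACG, with N any base), lies in such regions. Each is the 250 bases before the RefSeq start on build GRCm38.p6, written 5′ to 3′ on the gene's own strand, with CCAAT boxes and the ERSE's other end, CCACG, on either strand in capitals.
Atf6b, chr17:34646896-34647145, + strand: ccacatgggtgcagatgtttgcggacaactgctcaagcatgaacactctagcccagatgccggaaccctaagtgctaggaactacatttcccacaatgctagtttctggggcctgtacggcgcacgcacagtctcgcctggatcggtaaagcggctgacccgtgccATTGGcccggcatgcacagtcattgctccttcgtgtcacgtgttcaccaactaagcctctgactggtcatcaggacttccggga
Creb3, chr4:43562408-43562657, + strand: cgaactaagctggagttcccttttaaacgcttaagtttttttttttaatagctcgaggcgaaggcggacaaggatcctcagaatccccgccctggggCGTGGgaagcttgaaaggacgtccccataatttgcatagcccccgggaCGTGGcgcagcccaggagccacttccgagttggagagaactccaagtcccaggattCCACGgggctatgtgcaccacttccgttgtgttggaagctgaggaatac
Creb3l2, chr6:37442149-37442398, - strand: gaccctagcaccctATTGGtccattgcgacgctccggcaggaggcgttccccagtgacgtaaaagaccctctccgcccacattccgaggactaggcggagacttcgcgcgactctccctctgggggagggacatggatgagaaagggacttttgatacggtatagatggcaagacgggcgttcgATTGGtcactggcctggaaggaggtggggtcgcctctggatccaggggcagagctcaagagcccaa
The window of Atf6b held a CCAAT box on the other strand 84 bases before the start, and that of Creb3l2 held 2, at 236 and 66 bases, with no CCACG in either. The window of Creb3 held CCACG 3 times, at 153 and 105 bases on the other strand and at 49 bases on the gene's strand, with no CCAAT. Members that are not printed held such letters too: the window of Mbtps1 held CCACG at 12 bases, and 1 of the 2 windows of Creb3l3 held a CCAAT box at 95 bases on the other strand and CCACG at 110 bases, though neither gene was called. The window of Mbtps2, which rose in WT liver, held neither. Of all 32851 mouse windows of this length, 33.8% held a CCAAT box and 28.3% held CCACG.

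None of the 6 members with a window (Atf6b, Creb3, Creb3l2, Creb3l3, Mbtps1 and Mbtps2) held a whole ERSE on either strand, nor ERSE-II (ATTGGNCCACG), the UPRE core TGACGTGG, or the ATF4 site TGATGNAA. The shares of all windows with these were 0.113%, 0.0304%, 0.563% and 3.45%. Atf6 and Creb3l1 had no window, so their promoters were not searched. Of 17 known ATF6 target genes with a window, 9 held an ERSE, and 3 of those sites are printed to show what the members' windows did not hold, with the fixed letters in capitals; Hspa5, the ER chaperone BiP, was chosen for this after its values were seen. Each site is written in the direction of the motif, which is the gene's strand for Hspa5 and the other strand for Creld2 and Derl3.
Hspa5, chr2:34772025-34772043: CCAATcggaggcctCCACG
Creld2, chr15:88819520-88819538: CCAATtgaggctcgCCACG
Derl3, chr10:75893242-75893260: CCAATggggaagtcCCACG
A match is a string of letters and not a measured binding site, and elements outside the windows were not searched.

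The targeted gene, Eif2ak3, which encodes PERK, was lower in lsPERK livers under tunicamycin. It had normalised intensities of 1725 to 2419.7 in WT tunicamycin livers and 239 to 316 in lsPERK tunicamycin livers, a log2 difference of -2.75 (adjusted p = 1.47e-07, limma with Benjamini-Hochberg adjustment over all genes). Under control it was at 240.1 to 443 in WT and 127 to 157 in lsPERK livers, which did not overlap, but the log2 difference of -1.27 was not called (adjusted p = 0.309). Whether its probes lie in the deleted part is not given. All 8 hepatocyte markers were above the threshold, and their summed intensity ran from 140468 to 149884 over the arrays. Such a sum needs signals near the top of the scale, where proportion to RNA was not tested, so its narrow range is no measure of the hepatocyte share.

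Most tested members of the family rose under tunicamycin: Atf6, Atf6b, Creb3 and Creb3l2 in both genotypes and Mbtps2 in WT liver, while Creb3l3 and Mbtps1 were not called. In WT liver 5 of the 7 tested members were called higher and 0 lower at an adjusted p under 0.05, where 20.7% of all 12085 genes were called higher and 26% lower. The median log2 change of the 7 was 0.61, against -0.13 over all genes. In lsPERK liver 4 of 7 were called higher and 0 lower, against 8.42% and 7.27% of all genes, with a median of 0.42 against -0.02. Without normalisation between arrays the median of all genes in WT liver moved from -0.13 to 0.30, and the share of called genes that were higher from 44.2% to 83.7%, but the 5 members stayed called.

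**Figure D1:**
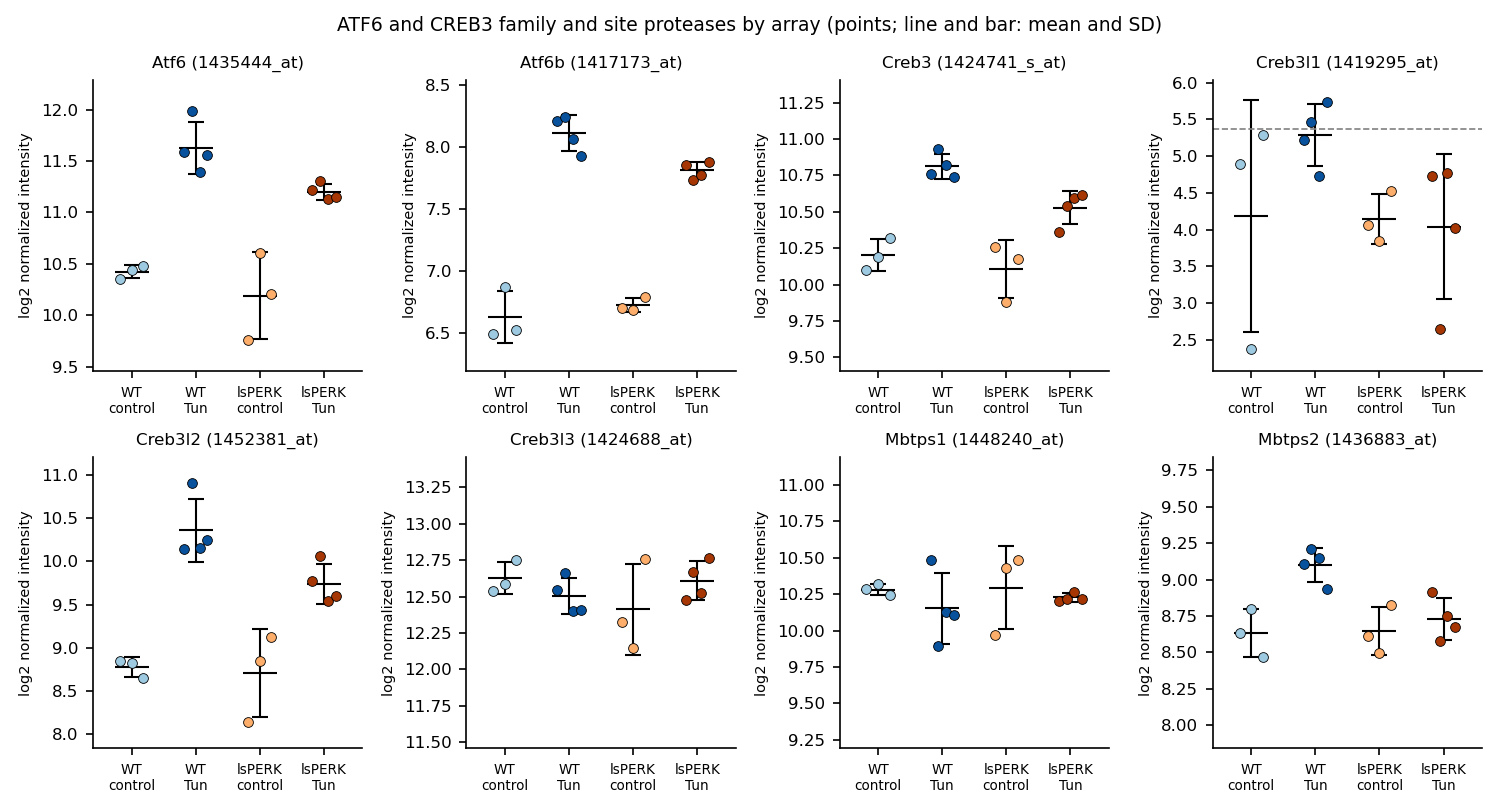
Normalised intensity (log2) of each member's brightest probe set in every array, by group (Tun, tunicamycin), with the mean and SD as a line and bar and, for Creb3l1, the filter threshold dashed. Atf6, Atf6b, Creb3 and Creb3l2 stand higher under tunicamycin in both genotypes, Mbtps2 stands apart in WT tunicamycin livers, and Creb3l3 and Mbtps1 overlap throughout.

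Atf6 itself was read by 3 probe sets. On the brightest, 1435444_at, the normalised intensity was 1309.7, 1388 and 1429 in WT control livers and 3079, 4061, 2688 and 3014 in WT tunicamycin livers. In lsPERK livers it was 866, 1557 and 1179.6 under control and 2384, 2529, 2247 and 2268 under tunicamycin. Every tunicamycin array stood above every control array in both genotypes, and every lsPERK tunicamycin array stood below every WT tunicamycin array, while the 2 control groups overlapped.

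Atf6 on this probe set rose 2.31-fold in WT liver (log2 1.21, SE 0.17, adjusted p = 5.31e-05, limma) and 2.02-fold in lsPERK liver (log2 1.01, adjusted p = 0.00109). Under tunicamycin lsPERK livers were lower than WT livers by the test, with a log2 difference of -0.43 (SE 0.16, adjusted p = 0.0457). The responses of the genotypes were not called different: the difference, lsPERK minus WT, was -0.19 with a 95% confidence interval of -0.71 to 0.32 (adjusted p = 0.633). The call on the level under tunicamycin was narrow: it was lost in 15 of 28 alternative settings, in all of which lsPERK stayed lower, and without WT tunicamycin replicate 2, the highest array, the difference was -0.31 (adjusted p = 0.13).

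The 2 dimmer probe sets of Atf6 showed wider gaps between the genotypes under tunicamycin. On 1456021_at the intensity was 429.9, 458 and 534 in WT control and 2411, 2333, 1825 and 2034 in WT tunicamycin livers. The lsPERK livers gave 426, 505 and 536 under control and 883, 969, 726 and 984 under tunicamycin. The control groups overlapped almost fully, whereas the lowest WT tunicamycin array was well above the highest lsPERK tunicamycin array.

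In a fit over all 21808 probe sets with 1 gene, 1456021_at rose by a log2 of 2.18 in WT liver (SE 0.14, adjusted p = 5.26e-08) and by 0.86 in lsPERK liver (adjusted p = 0.00106). The lsPERK minus WT difference under tunicamycin was -1.27 (SE 0.13, adjusted p = 7.63e-06), and the difference of the responses was -1.32 (SE 0.20, adjusted p = 0.000711). Both were called in all 19 alternative settings, where the difference of responses ran from -1.83 to -1.22.

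On 1453288_at the intensity was 138, 213 and 119.9 in WT control livers and 746, 858, 891 and 772 in WT tunicamycin livers. Livers of lsPERK mice gave 123, 123 and 95.1 under control and 269.7, 308, 322 and 340.4 under tunicamycin. Here too all tunicamycin arrays stood above the controls of their genotype, and the WT tunicamycin arrays stood above all others.

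Probe set 1453288_at of Atf6 rose by a log2 of 2.42 in WT liver (SE 0.18, adjusted p = 1.84e-07) and by 1.45 in lsPERK liver (adjusted p = 0.000108). Under tunicamycin lsPERK was lower by a log2 difference of -1.40 (adjusted p = 2.69e-05). The difference of the responses was -0.97 (SE 0.25, adjusted p = 0.0188), and this call was lost without WT control replicate 3 (-0.79, adjusted p = 0.0524).

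Across the 3 Atf6 probe sets, all 3 were called higher in WT liver and all 3 in lsPERK liver, where 21.4% and 8.18% of probe sets were called higher. Under tunicamycin all 3 were called lower in lsPERK liver, against 15.6% of probe sets, and 2 of 3 had a smaller response in lsPERK liver, against 8.52%. These probe sets share a gene and the same arrays, so they are not independent readings of it. The sources used here do not give their positions in the transcript.

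**Figure D2:**
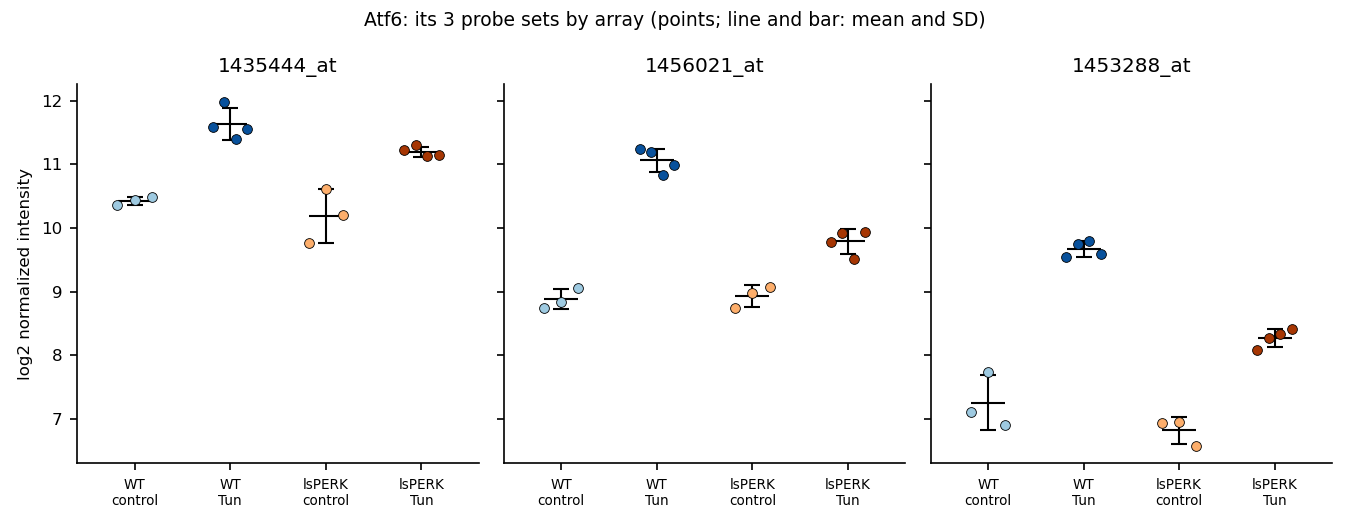
Normalised intensity (log2) of the 3 Atf6 probe sets in every array, by group (Tun, tunicamycin), with the mean and SD as a line and bar. On 1456021_at and 1453288_at the lsPERK tunicamycin arrays sit between the controls and the WT tunicamycin arrays, and on 1435444_at they sit just under the WT tunicamycin arrays.

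The probe sets were also compared within each array, which leaves out the scaling of the array as a whole; such a ratio shows unequal change and not which probe set changed. The log2 ratio of 1456021_at to 1435444_at was -0.57 ± 0.18 (SD, n = 4) in WT tunicamycin livers and -1.41 ± 0.17 (SD, n = 4) in lsPERK tunicamycin livers. The groups did not overlap, and the difference of -0.84 had an exact permutation p = 0.0286, two-sided, the smallest that 4 against 4 arrays can give, or 0.1 after adjustment over the 28 such comparisons of members' probe sets. For 1453288_at the ratio was -1.96 ± 0.27 (SD, n = 4) in WT and -2.93 ± 0.19 (SD, n = 4) in lsPERK tunicamycin livers, a difference of -0.97 with the same exact p and adjusted value.

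Under control the same Atf6 ratios overlapped between the genotypes, with differences of 0.28 and -0.20 (exact permutation p = 0.4 and 0.5, where 3 against 3 arrays cannot go below 0.1). Within WT liver the ratios were higher under tunicamycin than under control by 0.97 and 1.21, again with no overlap (exact permutation p = 0.0286 each, 0.1 adjusted). Within lsPERK liver they differed by -0.15 and 0.44 (exact permutation p = 0.4 and 0.171). The comparison of probe sets was chosen after the data were seen.

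**Figure D3:**
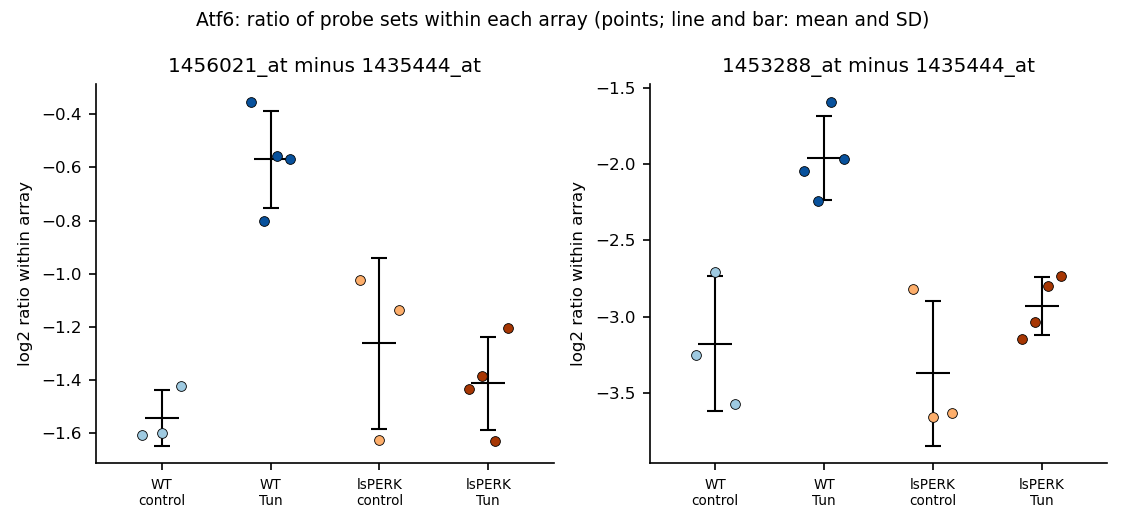
Log2 ratio, within each array, of the Atf6 probe sets 1456021_at and 1453288_at to the brightest Atf6 probe set 1435444_at, by group (Tun, tunicamycin), with the mean and SD as a line and bar. The 4 WT tunicamycin arrays stand above the arrays of the 3 other groups in both plots, with means of -0.57 and -1.96.

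The ratio of 3′ to 5′ signal of the beta-actin control, a measure of RNA integrity and of labelling, averaged a log2 of 1.09 in WT and 0.87 in lsPERK livers under control, and of 0.84 in WT and 0.68 in lsPERK livers under tunicamycin. With that ratio as a covariate the difference of responses was -1.34 for 1456021_at (adjusted p = 0.000887) and -0.95 for 1453288_at (adjusted p = 0.0255). Xist, the RNA of the inactive X chromosome, was high in 1 of 3, 2 of 3, 1 of 4 and 2 of 4 arrays of the groups in the same order. With Xist as a covariate the values were -1.32 (adjusted p = 0.000618) and -0.97 (adjusted p = 0.017). Both covariates were added for the Atf6 probe sets after the data were seen.

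Atf6b, the homologue with the weaker activating domain, also rose in both genotypes. Its intensity was 89.8, 117 and 91.7 in WT control livers and 297, 303, 268 and 244 in WT tunicamycin livers. The intensity in lsPERK livers was 104, 103 and 111 under control and 232, 213, 219 and 235 under tunicamycin. The controls overlapped, and all lsPERK tunicamycin arrays lay just below the lowest WT tunicamycin array.

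Atf6b rose 2.80-fold in WT liver (log2 1.49, SE 0.13, adjusted p = 9.38e-07) and 2.13-fold in lsPERK liver (log2 1.09, adjusted p = 8.33e-05). The lsPERK minus WT difference under tunicamycin was -0.30 and missed the threshold (adjusted p = 0.0704), as did the difference of responses of -0.40 (95% confidence interval -0.80 to 0.00063, adjusted p = 0.157). The former passed in 4 of 28 alternative settings, one of them median centring in place of quantile normalisation (-0.45, adjusted p = 0.0245).

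In the CREB3 branch, Creb3 and Creb3l2 rose in both genotypes and Creb3l3 was not called in either. Creb3 on 1424741_s_at was at 1096, 1169 and 1275 in WT control and at 1731, 1953, 1812 and 1707 in WT tunicamycin livers. Among lsPERK livers the values were 1227, 942 and 1158 under control and 1317, 1492, 1547 and 1570.3 under tunicamycin. The tunicamycin arrays stood above the controls in each genotype, and the lsPERK tunicamycin arrays all stood below the WT tunicamycin arrays.

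Creb3 rose 1.53-fold in WT liver (log2 0.61, SE 0.11, adjusted p = 0.000382) and 1.34-fold in lsPERK liver (log2 0.42, adjusted p = 0.017). Under tunicamycin lsPERK was lower by -0.28 (adjusted p = 0.0408), and the difference of responses was -0.19 (adjusted p = 0.447). The lsPERK rise was lost without lsPERK control replicate 2, the lowest array (log2 0.31, adjusted p = 0.0927), with the values as deposited (0.44, adjusted p = 0.187) and with only the compared groups fitted (0.42, adjusted p = 0.0523). The genotype difference was lost in 13 of 28 settings, down to -0.23 without lsPERK tunicamycin replicate 1 (adjusted p = 0.127).

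The other probe sets of Creb3 did not all show the same. In the probe set fit 1419979_s_at rose by a log2 of 1.15 in WT and 0.69 in lsPERK liver (adjusted p = 3.63e-06 and 0.00143) and was lower in lsPERK liver under tunicamycin by -0.43 (adjusted p = 0.00875). Probe set 1424740_at rose by 0.57 and 0.48 (adjusted p = 0.00631 and 0.0469), with a genotype difference of -0.16 that was not called. The dimmest, 1424742_at, was called in no contrast and had a log2 difference of -0.11 in WT liver. The suffix _s_at marks probes that the array's design matched to more than 1 transcript.

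Creb3l2, whose product promotes the secretory machinery of cartilage and other cells, was at 463, 455 and 401 in WT control and at 1130.3, 1915, 1137 and 1217 in WT tunicamycin livers, where replicate 2 stood apart from the other 3. In the lsPERK groups it was 282, 462 and 557 under control and 877, 1065, 744 and 776 under tunicamycin. No tunicamycin array fell among the controls of its genotype, and no lsPERK tunicamycin array reached the WT tunicamycin arrays.

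Creb3l2 rose 3.00-fold in WT liver (log2 1.58, SE 0.23, adjusted p = 7.13e-05, or 1.41 without WT tunicamycin replicate 2) and 2.05-fold in lsPERK liver (log2 1.04, adjusted p = 0.00722). Under tunicamycin lsPERK was lower by -0.62 (SE 0.21, adjusted p = 0.0351), and without WT tunicamycin replicate 2 by -0.44 (adjusted p = 0.103). The difference of responses of -0.55 was not called (95% confidence interval -1.24 to 0.15, adjusted p = 0.274). The dimmer probe set 1437396_at gave the same directions in the probe set fit: log2 changes of 2.32 and 1.59 (adjusted p = 1.48e-05 and 0.0017), a genotype difference of -0.96 (adjusted p = 0.011) and a difference of responses of -0.73 (adjusted p = 0.246).

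Creb3l3, the liver member, was at 5960.1, 6139.9 and 6899 in WT control and at 5986, 6484, 5409 and 5421 in WT tunicamycin livers. Levels in lsPERK livers were 5142, 4542 and 6931 under control and 5692, 6519, 5893 and 6959 under tunicamycin. All 4 groups overlapped, and the widest spread was that of the lsPERK controls.

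No contrast of Creb3l3 was called. The log2 difference in WT liver was -0.12 with a 95% confidence interval of -0.39 to 0.15 (adjusted p = 0.461), and in lsPERK liver 0.20 with an interval of -0.08 to 0.47 (adjusted p = 0.345). Without lsPERK control replicate 3, the lsPERK change (0.37, adjusted p = 0.0365) and the difference of responses (0.49, adjusted p = 0.0314) passed the test. That array was the highest of its group and the only one there without high Xist.

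Creb3l1, known from bone and fibroblasts, was near the floor of the array. Its intensity was 5.17 to 38.9 in WT and 14.4 to 23.0 in lsPERK livers under control, and 26.6 to 53.3 in WT and 6.26 to 27.2 in lsPERK livers under tunicamycin. Only 2 of 14 arrays exceeded the threshold, both of them WT tunicamycin arrays, and the ranges overlapped in all 4 comparisons of groups. With the filter removed no contrast of Creb3l1 was called, and the WT difference was 1.10 (adjusted p = 0.269). Of 8 markers of stellate cells and fibroblasts 7 were above the threshold.

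Of the proteases, Mbtps2 was called higher in WT liver and Mbtps1 was not called. Mbtps1, site-1 protease, was at 1249, 1275 and 1210.0 in WT control and at 1433, 953, 1118 and 1102 in WT tunicamycin livers. For lsPERK livers the intensity was 1000.1, 1380.4 and 1430.4 under control and 1178, 1192, 1232 and 1192 under tunicamycin. All groups overlapped, and the lsPERK tunicamycin arrays were the tightest.

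Mbtps1 was called in no contrast: its log2 difference was -0.13 in WT liver (95% confidence interval -0.43 to 0.17, adjusted p = 0.485) and -0.07 in lsPERK liver (-0.37 to 0.23, adjusted p = 0.819). The sign of the WT value turned to 0.41 in the setting that moved it most, and it was called in none of 28 settings. Probe set 1431385_a_at, with wide spreads, was not called either, and 1431386_s_at was below the filter.

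Mbtps2, site-2 protease, is X-linked and was at 397, 445 and 354 in WT control and at 552, 593, 568 and 490.2 in WT tunicamycin livers. In lsPERK livers the level was 392, 361 and 453 under control and 482, 383, 430.3 and 408 under tunicamycin. The WT tunicamycin arrays stood above all the others, and the 3 other groups overlapped.

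Mbtps2 rose 1.38-fold in WT liver (log2 0.47, SE 0.12, adjusted p = 0.00689), in all 28 alternative settings, and was at a log2 difference of 0.08 in lsPERK liver (95% confidence interval -0.18 to 0.35, adjusted p = 0.723). Under tunicamycin lsPERK was lower by -0.37 (SE 0.12, adjusted p = 0.022), a call lost without any one of 4 arrays (adjusted p up to 0.0687, without lsPERK tunicamycin replicate 2). The difference of the responses was -0.38 with an unadjusted interval of -0.76 to -0.0049, but its adjusted p was 0.152, so the genotypes were not shown to respond differently. It was called with the values as deposited (-0.98, adjusted p = 0.0425), where the median difference over all genes was -0.42, against 0.08 after normalisation.

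Within WT tunicamycin livers Mbtps2 was at 593 in the array with high Xist and at 490.2 to 568 in the 3 others. Within lsPERK tunicamycin livers it was at 383 to 482 in the 2 arrays with high Xist and at 408 to 430.3 in the 2 others. Under control, WT livers were at 397 in the array with high Xist and at 354 to 445 in the 2 others. The lsPERK control livers were at 361 to 392 in the 2 arrays with high Xist and at 453 in the other. Each kind had 1 to 3 arrays per group, too few for a comparison. Another probe set that the annotation shares between Yy2 and Mbtps2 was not used.

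**Figure D4:**
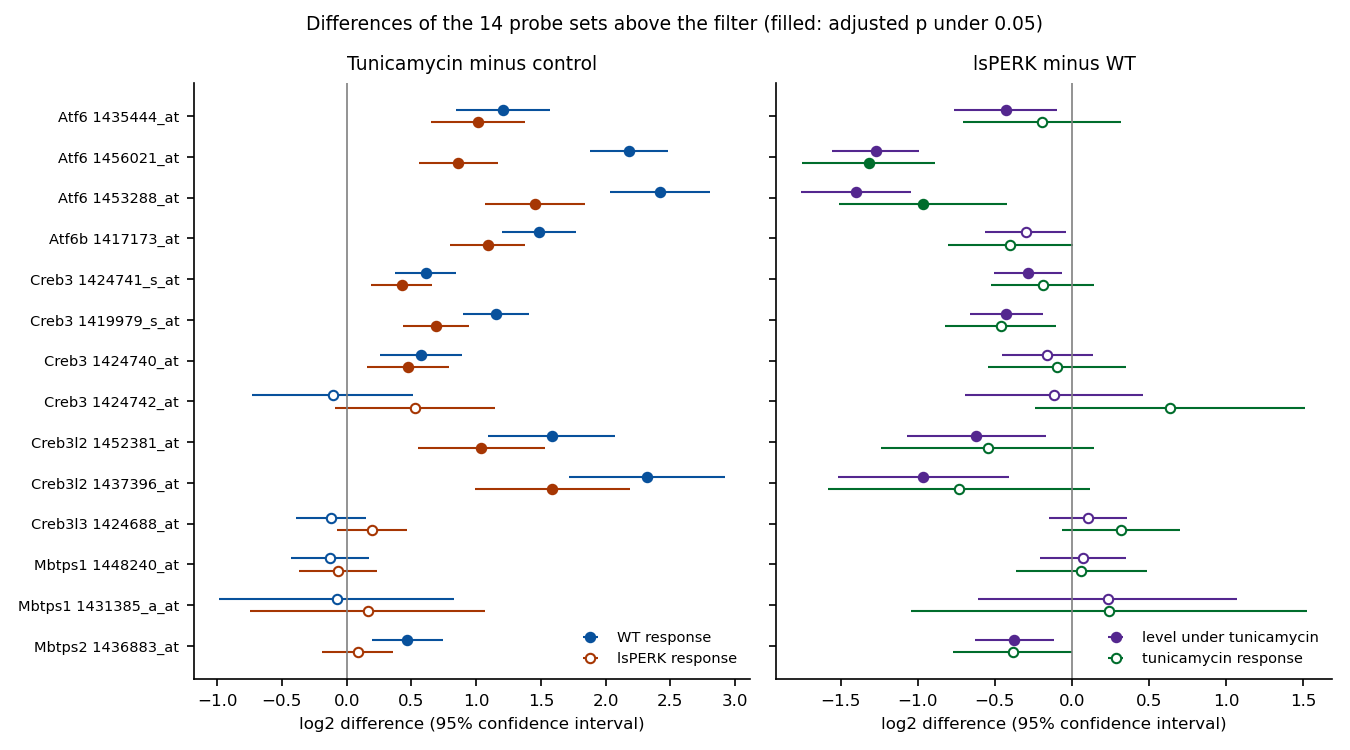
Log2 differences with 95% confidence intervals for the 14 probe sets above the filter, from the fit over all probe sets, with filled points at an adjusted p under 0.05; left, tunicamycin minus control in WT and lsPERK liver, and right, lsPERK minus WT for the level under tunicamycin and for the tunicamycin response. All probe sets of Atf6, Atf6b and Creb3l2 lie to the right of 0 on the left, and on the right the filled differences of responses are those of Atf6 1456021_at (-1.32) and 1453288_at (-0.97).

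Between genotypes, calls among the members were found under tunicamycin and not under control. Under control 0 of 7 members were called by their brightest probe sets, as was 0% of all genes (limma, smallest adjusted p = 0.309), with 512 genes and 0 members at an unadjusted p under 0.05. Among the dimmer probe sets, 1453288_at of Atf6 was at -0.43 (limma, unadjusted p = 0.0418) and 1424742_at of Creb3 at -0.75 (unadjusted p = 0.0291). Neither was called (adjusted p = 0.984 each). Under tunicamycin 4 of 7 members (Atf6, Creb3, Creb3l2 and Mbtps2) were called lower in lsPERK liver and 0 higher, where 16.8% of all genes were called lower and 18.5% higher. This count rested on single arrays: it was 0 without WT tunicamycin replicate 2 (adjusted p = 0.13, 0.0989, 0.103 and 0.0562 in the same order), 1 without any one of the 4 lsPERK tunicamycin arrays, and 2 without WT tunicamycin replicate 1, 3 or 4. Without replicate 4 those 2 were Mbtps2 and Atf6b (-0.36, adjusted p = 0.048), which was not among the 4. Replicate 2 was the only WT tunicamycin array with high Xist, against 2 of 4 among lsPERK tunicamycin arrays, so leaving it out also changed that balance. With Xist as a covariate Creb3 lost its call (-0.27, adjusted p = 0.0522), while Atf6, Creb3l2 and Mbtps2 stayed called. The median of the members was -0.30, against 0.05 over all genes. The difference of responses was called for 0 of 7 members by their brightest probe sets, against 9.67% of all genes lower and 10.2% higher, with 1 member (Mbtps2) at an unadjusted p under 0.05. All comparisons under tunicamycin share the WT tunicamycin arrays.

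The 2 highest group means were in the same order for all 5 members that rose in WT liver: WT tunicamycin first, then lsPERK tunicamycin, with both control groups below. The control groups overlapped for each of them. For Mbtps2 the lsPERK tunicamycin arrays overlapped both control groups too. The 5 members were picked by their rise in WT liver, so WT tunicamycin above WT control was given beforehand. How many of all genes have the same order of means was not counted.

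The known target genes of ATF6 in the ER, chaperones, oxidoreductases and degradation factors, were read on the same arrays; other stress factors such as XBP1 drive many of them too, and the activity of ATF6 itself was not measured. In WT liver 19 of 19 were called higher, against 20.7% of all genes (median log2 change 1.97, against -0.13), and in lsPERK liver 18 of 19, against 8.42% (median 1.17, against -0.02). Under tunicamycin 16 were called lower in lsPERK liver and 0 higher, against 16.8% and 18.5% of all genes (median -0.53), and 12 had a smaller response there and 0 a larger one, against 9.67% and 10.2% (median -0.70). With median centring in place of quantile normalisation these last counts were 10 and 7. This list and those below were chosen with earlier results of these data known, so their counts describe the lists and are no independent test.

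Among them Derl3, a channel component of ER-associated degradation, had a log2 change of 6.37 in WT and 4.01 in lsPERK liver, with a difference of -2.36 (SE 0.35, adjusted p = 0.00054). Creld2, an ER disulphide isomerase, rose by 4.32 and 3.40, with a difference of -0.93 (adjusted p = 0.000566). Sel1l, the adaptor of the ligase HRD1, rose by 2.47 and 1.17, with a difference of -1.30 (adjusted p = 9.97e-05). Hspa5, printed above for its ERSE, rose by 1.26 and 1.02 and its difference of -0.24 was not called (adjusted p = 0.159). That difference of Hspa5 was called with its probe sets averaged (-0.58, adjusted p = 0.00564) and without WT control replicate 2 (-0.34, adjusted p = 0.0226), and it was -0.0098 with median centring. The level of Hspa5 under tunicamycin differed by -0.14 (adjusted p = 0.179), or by -0.36 with its probe sets averaged (adjusted p = 0.00374). Its brightest probe set read 19049 to 21087 in WT and 17770 to 18013 in lsPERK tunicamycin livers, near the top of the scale. The highest deposited intensity of any probe set was 27757. Whether signals that high still follow RNA in proportion was not tested. Xbp1, also an ATF6 target, rose by 0.63 in WT liver and was at -0.03 in lsPERK liver, with a difference of -0.66 (adjusted p = 0.00378) that was lost with median centring.

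ATF6 leaves the ER in COPII vesicles, and of 15 genes of the coat and of ATF6's redox and degradation control 9 were called higher and 1 lower in WT liver, against 20.7% and 26% of all genes, and 6 higher and 0 lower in lsPERK liver, against 8.42% and 7.27% (medians 0.59 and 0.27). Wfs1, which directs ATF6 to degradation, rose by a log2 of 2.37 and 1.66 (adjusted p = 2.17e-07 and 2.88e-05). The inner coat subunits parted: Sec23b rose by 1.83 and 1.60, with a difference of -0.22 (adjusted p = 0.515), while Sec23a rose by 0.75 in WT liver, was at -0.10 in lsPERK liver and differed by -0.85 (adjusted p = 0.00186). Sar1b, a GTPase that starts the coat, fell by 0.23 in WT liver and rose by 0.23 in lsPERK liver, with a difference of 0.46 (adjusted p = 0.00479) that was lost with the values as deposited; its lsPERK rise was called in 16 of 27 settings.

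Of 6 nuclear partners of ATF6, 3 were called higher and 2 lower in WT liver, against 20.7% and 26% of all genes, and 0 higher and 1 lower in lsPERK liver, against 8.42% and 7.27%. With the values as deposited or with median centring the WT counts were 4 higher and 0 lower. Nfya, a subunit of the factor that binds CCAAT, rose by 0.91 in WT liver (adjusted p = 0.000392) and was at 0.40 in lsPERK liver (adjusted p = 0.116). Yy1, which joins ATF6 at ERSE promoters, rose by 0.70 in WT liver, was at -0.10 in lsPERK liver and differed by -0.80 (adjusted p = 0.00997). With its probe sets averaged Yy1 lost both calls.

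**Figure D5:**
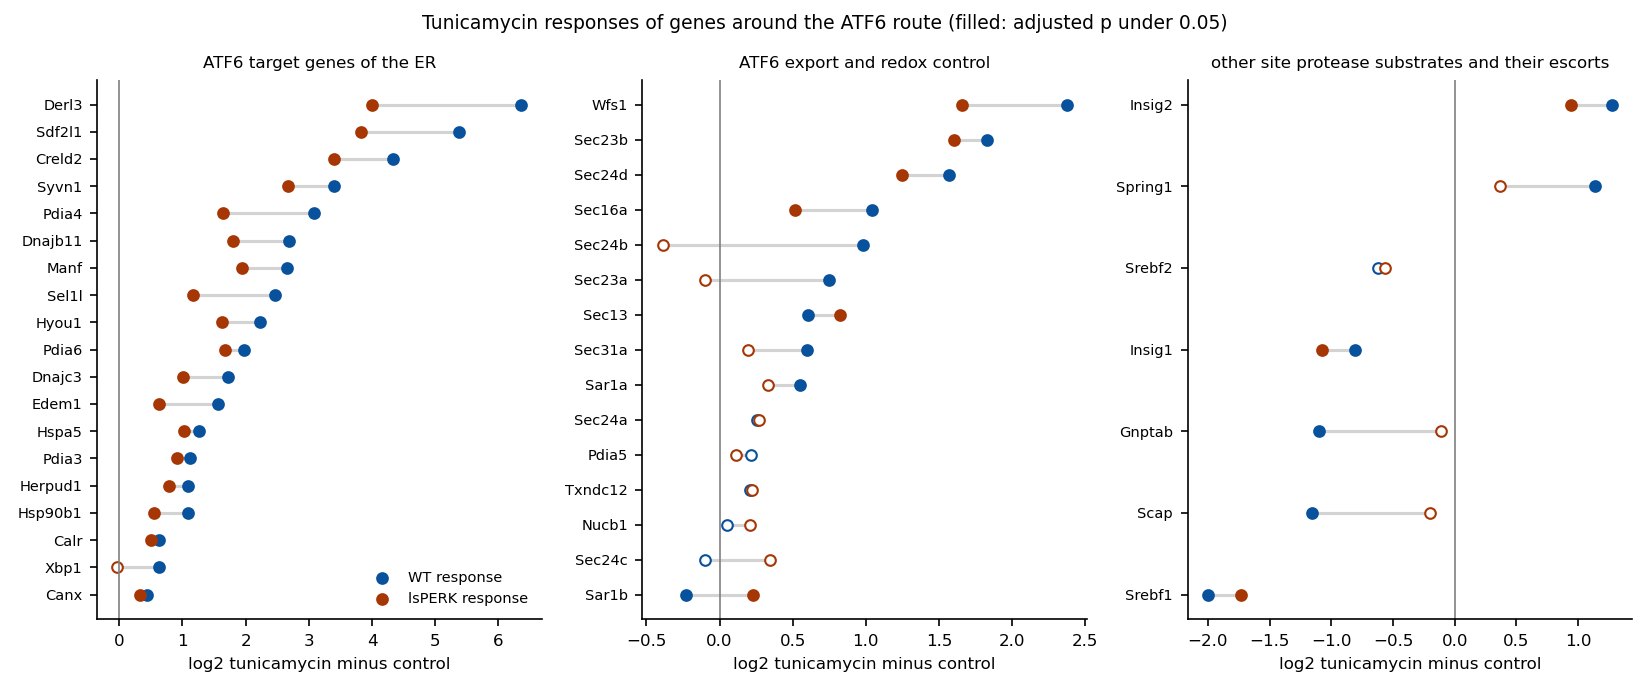
Log2 change under tunicamycin of each tested gene of 3 lists in WT and lsPERK liver, joined by a line, with filled points at an adjusted p under 0.05. In the list of ATF6 targets 19 of 19 points are filled in WT and 18 of 19 in lsPERK liver, and all lie further right in WT liver, while the list of other protease substrates holds changes of both signs.

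Site-1 and site-2 proteases also cut the sterol factors SREBP1 and SREBP2 (genes Srebf1 and Srebf2), which the escort SCAP carries to the Golgi. Of 7 such substrates, escorts and retention factors, 2 were called higher and 4 lower in WT liver, against 20.7% and 26% of all genes, and 1 higher and 2 lower in lsPERK liver, against 8.42% and 7.27%. The 4 lower in WT liver were 2 with the values as deposited and 3 with median centring. Scap was at 0.96 in the difference of responses (adjusted p = 0.00935), with a fall of 1.16 in WT liver and a value of -0.20 in lsPERK liver. Gnptab, a phosphotransferase precursor cut by site-1 protease, fell by 1.10 in WT liver and was at -0.11 in lsPERK liver, a difference of 0.99 (adjusted p = 0.00594). Both differences were lost with the values as deposited.

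Spring1, a cofactor of site-1 protease, rose by 1.14 in WT liver (adjusted p = 1.61e-05), was at 0.37 in lsPERK liver (adjusted p = 0.0936) and differed by -0.77 (adjusted p = 0.0145). Insig2, which holds SCAP in the ER, rose by 1.27 and 0.94, with a difference of -0.33 that was not called (adjusted p = 0.391).

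Of 11 tested target genes of SREBP2, 3 were called higher and 4 lower in WT liver, against 20.7% and 26% of all genes, and 0 higher and 4 lower in lsPERK liver, against 8.42% and 7.27%. The 4 lower in WT liver were 0 with the values as deposited and 2 with median centring, and the 4 lower in lsPERK liver were 3 and 2. Mvd, a decarboxylase of the mevalonate pathway, rose by 1.83 in WT liver (adjusted p = 0.000677), was at -0.95 in lsPERK liver (adjusted p = 0.086) and differed by -2.77 (adjusted p = 0.0018). Fdps, a later enzyme on that route, rose by 1.19 in WT liver and differed by -1.47 (adjusted p = 0.0394), a call that held in 14 of 27 settings. Stard4, a sterol carrier, fell by 0.80 and 0.61 (adjusted p = 0.000135 and 0.00476).

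Of 12 tested genes linked to CREBH, the product of Creb3l3, 4 were called higher and 5 lower in WT liver, against 20.7% and 26% of all genes, and 1 higher and 2 lower in lsPERK liver, against 8.42% and 7.27%. With the values as deposited the WT counts were 3 and 3, and those in lsPERK liver 1 and 1; with median centring they were 3 and 6, and 1 and 0. Fgf21, a liver hormone that CREBH and other stress factors drive, rose by 5.23 in WT liver (adjusted p = 1.08e-06), was at 1.07 in lsPERK liver (adjusted p = 0.152) and differed by -4.16 (SE 0.66, adjusted p = 0.000909). Apoc2, the activator of lipoprotein lipase, fell by 0.96 in WT liver, was at 0.07 in lsPERK liver and differed by 1.03 (adjusted p = 0.000864).

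Of 6 tested relatives, partners and reported targets of the CREB3 proteins, 4 were called higher and 0 lower in WT liver, against 20.7% and 26% of all genes, and 2 higher and 0 lower in lsPERK liver, against 8.42% and 7.27%. Arf4, a Golgi GTPase that CREB3 induces, rose by 1.11 and 0.65, with a difference of -0.47 (adjusted p = 0.0195) that was lost in 4 of 27 settings. Sec24d, a cargo-binding coat subunit linked to CREB3L2, rose by 1.57 and 1.25, with a difference of -0.32 that was not called (adjusted p = 0.333).

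The genes whose profile over the 14 arrays was most like that of each member were found by Pearson's r of the normalised log2 intensity. For Atf6 they were Ddx50 (r = 0.969), the member Creb3l2 (r = 0.965) and Tspyl2 (r = 0.958). For Atf6b they were the Golgi tether Uso1 (r = 0.996), the ER stress factor Manf (r = 0.993) and the mannose enzyme Gmppb (r = 0.991), and for Creb3l2 they were Ddx50 (r = 0.984), Tmem214 (r = 0.982) and Txnl1 (r = 0.972). For Creb3 they were Rrp8, Saraf and Lsg1 (r = 0.969, 0.967 and 0.964).

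Those of Mbtps2 were Ginm1, Naa15 and Fam118b (r = 0.941, 0.936 and 0.936). The closest profiles to Creb3l3 (Gpatch2l, Anapc1 and Ccnyl1) reached r = 0.856, 0.845 and 0.843, and those to Mbtps1 (Stat3, Atp11b and Tmem250-ps) 0.875, 0.822 and 0.815. All points share the 4 group means, so these values describe likeness over the groups more than within them. Atf6 and Creb3l3 had r = 0.108, and Atf6 and Mbtps1 r = -0.236.

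In whole liver a change in the RNA of a cell type and a change in the share of that type cannot be told apart. Markers of other cell types were not called higher in WT liver: the 8 Kupffer cell markers summed to 8039 to 22315 in WT control and 4633 to 14713 in WT tunicamycin livers, with 1 called and lower, while the 8 sinusoidal endothelial markers and the 8 of stellate cells and fibroblasts held 2 each, called and lower. Of the 8 hepatocyte markers 1 was called higher and 1 lower. Between genotypes under tunicamycin 2 hepatocyte, 1 endothelial and 1 stellate cell marker were called in either direction, and 0 of the Kupffer cell markers. Of all genes, 20.7% were called higher and 26% lower in WT liver, and 18.5% higher and 16.8% lower between genotypes under tunicamycin. With so few markers per type these counts are no measure of a cell type's share. The part of cell shares in the members' changes was not tested.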

How the data were processed

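Liver RNA of 14 samples was measured on 1 Affymetrix array each. The authors deposited 1 linear intensity per probe set and array; MAS5 and GCOS made them, per the submitters' processing notes, while the sources used here give no version, scaling target or detection call. Array medians of the deposited intensities differed by 0.63 on the log2 scale, over the 0.5 set as the limit, so log2 intensities of the 45037 probe sets that are no controls were quantile normalised. Levels are on that scale. The number of arrays limits the precision. Probe sets were named from the platform annotation (34945 with 1 gene). A probe set was kept with at least 3 arrays above the pooled median (log2 5.37), which left 12085 genes, each by its brightest probe set.

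R 4.3.3 with limma 3.58.1 (lmFit, eBayes with trend) fitted 1 mean per group, with 10 residual degrees of freedom, and 5 two-sided contrasts were adjusted by Benjamini-Hochberg over all genes, or over all 21808 probe sets. The procedure was tested on simulated data. Promoters were searched with Python 3.11.15. The named genes were the members, the 2 genes of lowest p in each list in the WT response and in the difference of responses, and the 3 genes most like each member. The members and lists were chosen with earlier results of these data known. Arrays shared at most 0.00444% identical values between any pair. Alternatives were other scalings, filters, probe set choices, covariates, a replicate block, fits on fewer groups and leaving out each array.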

Additional observations from a re-analysis of the deposited data

Results flagged for a closer look

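Differences between the tunicamycin responses of the genotypes, lsPERK minus WT on the log2 scale, passed the limma test for Atf6 on 1456021_at (-1.32, adjusted p = 0.000711) and on 1453288_at (-0.97, adjusted p = 0.0188), and not on its brightest probe set. Among the ATF6 targets and partners the response was smaller in lsPERK liver for Derl3 (-2.36, adjusted p = 0.00054), Creld2 (-0.93, adjusted p = 0.000566), Sel1l (-1.30, adjusted p = 9.97e-05), Xbp1 (-0.66, adjusted p = 0.00378) and Yy1 (-0.80, adjusted p = 0.00997). In the export and CREB3 lists the differences were -0.85 for Sec23a (adjusted p = 0.00186), 0.46 for Sar1b (adjusted p = 0.00479) and -0.47 for Arf4 (adjusted p = 0.0195).

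Around the proteases and CREBH the differences were -0.77 for Spring1 (adjusted p = 0.0145), 0.99 for Gnptab (adjusted p = 0.00594), 0.96 for Scap (adjusted p = 0.00935), -2.77 for Mvd (adjusted p = 0.0018), -1.47 for Fdps (adjusted p = 0.0394), -4.16 for Fgf21 (adjusted p = 0.000909) and 1.03 for Apoc2 (adjusted p = 0.000864). These list genes were picked by low p, in part in this same contrast, and only called ones are given, so their passing is no further support. Of all genes 9.67% were called lower and 10.2% higher. The calls of Gnptab, Scap and Sar1b were lost with the values as deposited, and that of Fdps held in 14 of 27 settings. Limits of Xbp1, Yy1 and Arf4 are given above.

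Single arrays stood apart in 2 of 32 groups of 4 tested, where chance gives about 1 in 20. Creb3l2 on 1452381_at was at 1915 in WT tunicamycin replicate 2, with a gap of 0.859 of the group's range to the next array. Mbtps1 on 1431386_s_at, which was below the filter, was at 42.2 in WT tunicamycin replicate 3, with a gap of 0.832 of the range.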

How the results depend on the processing

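Of 1258 values of the members and Atf6 probe sets recomputed under alternative settings, 1195 stayed on their side of the threshold, 55 fell short of it, 8 passed it and none of the called values changed sign; a change of sign in a value never called was counted with the first. The 5 members called higher in WT liver were 5 in every setting. The 4 members called lower in lsPERK liver under tunicamycin were 2 with no filter, 2 with the 3′ to 5′ covariate and 0 to 4 without single arrays, with 0 without WT tunicamycin replicate 2. The count for the difference of responses, 0, was 1 with values as deposited (Mbtps2), 1 with the mean of probe sets (Atf6, -0.83, adjusted p = 0.00342) and 0 to 1 without single arrays. Of the Atf6 probe sets 1 to 2 kept that call without single arrays. In lsPERK liver 3 to 5 members were called without single arrays. Over all genes the lsPERK response held 1897 calls, 695 with values as deposited and 1124 without lsPERK control replicate 2, and the genotype difference under tunicamycin held 4269, or 2662 as deposited; under control it held 0, or 1 with either covariate or with only the compared groups fitted. The share of called genes that were higher was 53.7% in lsPERK liver and 71.7% with median centring, 52.4% and 37.3% between genotypes under tunicamycin, where values as deposited gave 26.5%, and 51.3%, 35.6% and 6.79% for the difference of responses.

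With the replicate block 5, 4, 0, 3 and 0 members were called in the 5 contrasts; the call lost was Creb3 under tunicamycin (-0.28, adjusted p = 0.0635). Not every pair of arrays with the same replicate number deviated together: 13 of 19 correlated above 0.1 (from -0.366 to 0.419), as did 23 of 54 pairs with different numbers (from -0.488 to 0.543). Between the lsPERK control and tunicamycin groups all 3 did (0.242 to 0.349), and no member's call in that contrast changed with the block; between the WT groups 1 of 3 did. All pairs alike in Xist, both high or both low, had a positive value whatever their numbers, and all pairs unlike in Xist a negative one. The highest, 0.543, joined WT control replicate 1 and WT tunicamycin replicate 2, both with high Xist. The causes were not tested. Signal near the background limits Creb3l1.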
